A study of Arabidopsis thaliana with 12 samples.

Results

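Among the transcripts with strong signal on these Arabidopsis thaliana arrays, 25 had average intensities in the flu mutant and in the wild type (WT) that differed by less than 1.5-fold. They are the features that the platform table pairs with exactly 1 gene, with a mean deposited intensity over all 12 arrays of at least 1.2 and a flu mean divided by the WT mean above 0.667 and below 1.5. The rule leaves out 6 genes of photosynthesis, chlorophyll synthesis and the thylakoid NDH complex, of which 5 met the limits. The 25 come from 3439 features in all, 692 of them with 1 gene and 64 of those with a mean of at least 1.2. The other 39 of the 64 are the comparison set of abundant features used below.

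Both genotypes were of ecotype Landsberg and were harvested after 12 h of darkness, and total RNA was measured on 6 arrays of WT and 6 of flu. The flu plants carry a mutation in FLU, and the labels give no allele, age or tissue. Separate plants or cultures are not named for the arrays, so spreads and p-values measure only the variation between these samples, which may be technical. No listed feature held FLU, so the mutated gene could not check the labels. Of 16 tissue markers, 1 was measured alone, LHB1B2 of the light-harvesting antenna, at a mean of 17.5 in WT and 18.4 in flu.

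The FLU protein is a plastid membrane protein that restrains the first step of tetrapyrrole synthesis when plants are in the dark. Plants without it accumulate protochlorophyllide in darkness, and this pigment generates singlet oxygen once light returns. In the dark itself the mutant is known for excess pigment precursor rather than for injury, and the question is which transcripts already differ before illumination. Transcripts whose averages differed less are the other side of that comparison.

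Intensities are in the authors' arbitrary units, with an upper limit of 100 and array medians between 0.426 and 0.491. The 25 ran from 0.344, the lowest value of AT4G27700, to 21.3, the highest of AT4G31530, and 0 of them were listed at 0 on any array. The lowest value of AT4G27700 was below every array median. Different features bind their targets with different strength, so levels are compared between arrays and not between genes. In whole-plant or tissue RNA, fewer cells of a type and less RNA per cell cannot be told apart.

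These transcripts were chosen by their mean intensity and their flu to WT ratio, so both are given as a description, and no test of the genotypes is read as a result about them. The ratio of flu to WT ran from 0.669 to 1.49 with a median of 0.972, and lay within 10% of 1 for 11 of the 25. It was above 1 for 11 transcripts and below 1 for 14, against 60.7% of all features below 1. With couples averaged and strips of feature numbers centred, as described below, the balance turned, to 17 above and 8 below. The strips were found in these data, and no array layout is given for them. Their median log2 ratio was -0.04, against -0.26 over all features as deposited. Just inside the lower limit were AT2G40980 at 0.669, AT4G13680 at 0.699 and AT2G19280 at 0.707, and just outside it AT1G07460 at 0.646, AT1G17160 at 0.617 and AT1G44830 at 0.596. Just inside the upper limit were AT3G47650 at 1.49, FZL at 1.39 and XERICO at 1.36, and just outside it NdhS at 1.54, AT3G26630 at 1.60 and AT2G27290 at 1.67. By mean intensity the nearest inside were ATSIK at 1.23, AT3G26580 at 1.23 and AT4G27700 at 1.24, and the nearest outside chr31 at 1.18, AT1G73740 at 1.17 and AT1G50390 at 1.16. The values run on across each limit without a gap.

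**Figure D1:**
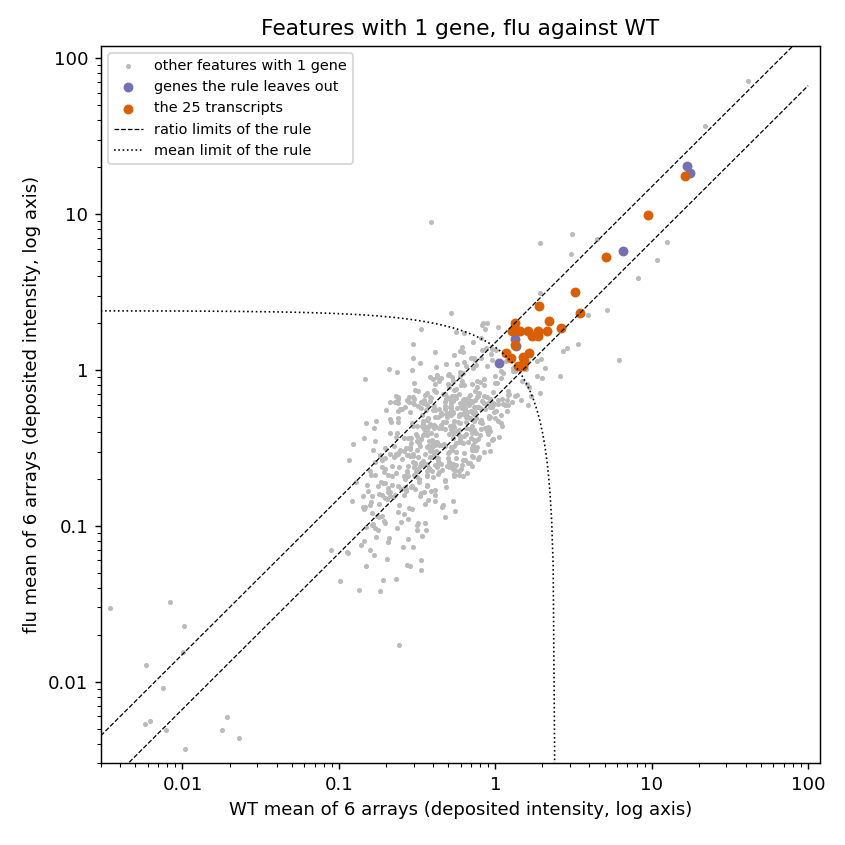
Mean deposited intensity over 6 flu arrays (vertical) against that over 6 WT arrays (horizontal) for features with 1 gene, both axes logarithmic, with features at or near 0 off the axes. The 25 transcripts fill the band between the ratio limits of 0.667 and 1.5 (dashed) above the mean limit of 1.2 (dotted), together with the genes that the rule leaves out.

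The averages lay within the limits by the choice of transcripts, and the arrays behind them spread further. Within each genotype, arrays resembled each other in couples (1 with 2, 3 with 4, 5 with 6), a grouping found in the data and not named in the labels. The grouping was clear in WT and less so in flu. Correlations (rho) were 0.909 to 0.967 within couples and 0.780 to 0.872 between WT couples. Between flu couples they were 0.893 to 0.942, which overlaps the range within couples. Over the 25, the 2 arrays of a couple differed by a median of 1.09-fold, while the highest and lowest couple means differed by a median of 1.74-fold in WT and 1.35-fold in flu. The corresponding values over all features were 1.14-fold, 1.48-fold and 1.32-fold. The coefficient of variation (SD as a percentage of the mean) over 6 arrays had a median of 26.9% in WT and 15.4% in flu for the 25, against 23.3% and 18.1% over all features and 19.9% and 11.2% over the 39 other abundant features. It was higher in WT for 16 of the 25 (64.0%), close to the 60% of all features.

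Taken couple by couple, 9 of the 25 kept a ratio within the limits in each of the 3 couples, and 16 did not. That is 36.0%, against 46% of the 1559 features of any level whose overall ratio lay within the limits. The 9 were XERICO, CYN, ATSIK, AT3G09080, AT5G06790, AT2G47360, AT4G29890, AT2G29870 and AT3G26580. The first couple placed 12 transcripts outside the limits, 9 of them above, while the second placed 3 and the third 5 outside. Among the 9 above, AT3G47650 and AT1G35510 only just passed the limit, each at 1.50. For AT1G67800, AT3G13150 and AT3G49740 the ratio lay above the upper limit in 1 couple and below the lower limit in another. Most features of any level within the limits overall thus also left them in some couple.

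**Figure D2:**
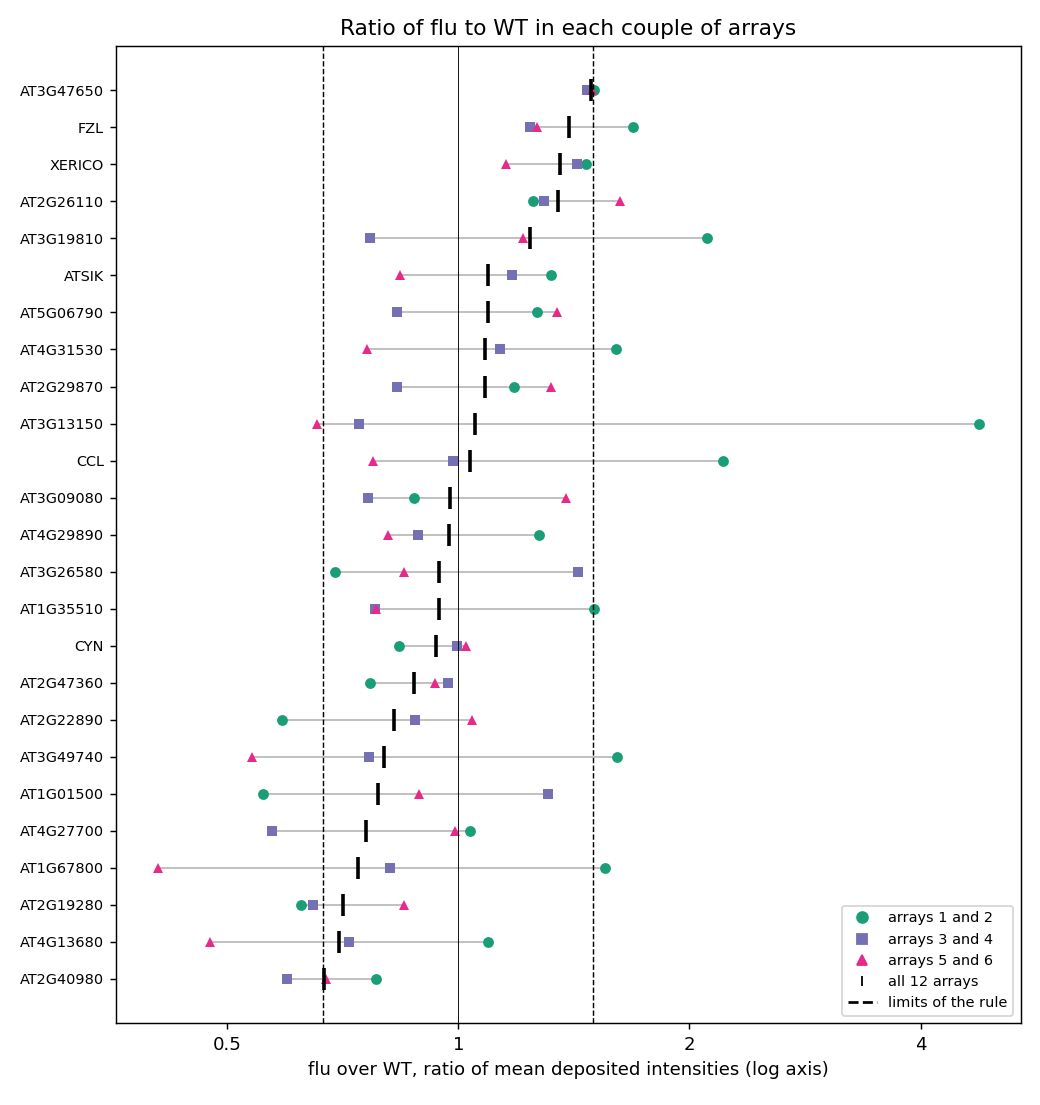
Ratio of the flu to the WT mean intensity for each of the 25 transcripts, over all 12 arrays (bar) and within each couple of arrays (symbols), on a log axis with the limits of 0.667 and 1.5 dashed. The bars lie within the limits for all 25, and the symbols of all 3 couples do so for 9; AT3G13150 reaches 4.77 in the first couple.

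The group of plastid proteins held 4 of the 25, and proteins placed under other roles below may also be in plastids. FZL (AT1G03160), a dynamin-like GTPase that shapes thylakoid membranes, measured 1.16 to 1.35 in WT with a median of 1.30 and 1.55 to 2.32 in flu with a median of 1.69. The lowest flu array was above the highest WT array, but the log2 difference of 0.48 became 0.08 with strips centred. AT3G47650, a zinc-finger protein of the DnaJ type that assists Rubisco assembly, measured 0.996 to 1.56 in WT (median 1.35) and 1.72 to 2.21 in flu (median 2.08), again with no overlap. Its ratio was 1.50, 1.47 and 1.49 in the 3 couples, nearly the same each time and at the upper edge of the limits, and its log2 difference was 0.57 as deposited and 0.40 with strips centred. WT and flu arrays did not overlap for these 2 of the 25, against 37.1% of all features, and since the ratio chose the transcripts nothing is read from this share.

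AT4G27700, a rhodanese-like domain protein, ranged widely in both genotypes, from 0.344 to 2.42 in WT (median 1.24) and from 0.355 to 1.51 in flu (median 1.18). The first couple was low in both, at 0.584 in WT and 0.605 in flu, against 2.40 and 1.24 in the other WT couples and 1.37 and 1.22 in the other flu couples. AT3G26580, a tetratricopeptide repeat protein, measured 1.01 to 1.67 in WT (median 1.24) and 1.003 to 1.60 in flu (median 1.10), with full overlap. Within this group the first couple was the highest WT couple for AT3G26580 and the lowest for the other 3 genes.

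Pentatricopeptide repeat proteins, which bind organelle transcripts and take part in their editing, splicing and stability, made up 3 of the 25. AT3G13150 had the widest gap between WT couples of all 25, 5.37-fold, with arrays from 1.13 to 7.68 (median 6.57). Its first WT couple stood at 1.32, against 7.08 and 6.83 in the other WT couples, while the flu arrays measured 4.47 to 6.31 (median 5.25). The ratio was 4.77 in the first couple, 0.742 in the second and 0.654 in the third, and the overall ratio of 1.05 is the balance of these. Without the first couple of both genotypes the WT mean was 6.95 and the flu mean 4.86, a ratio of 0.699.

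AT3G49740 had the same arrangement, with 0.780 in the first WT couple and 1.55 and 2.21 in the others, against 1.26, 1.19 and 1.19 in flu. Its arrays ran from 0.778 to 2.32 in WT (median 1.55) and from 1.05 to 1.33 in flu (median 1.24), so flu lay inside the WT range. AT2G19280 measured 1.07 to 1.68 in WT (median 1.60) and 0.768 to 1.32 in flu (median 1.02). It was lower in flu in each couple, at ratios of 0.625, 0.647 and 0.851, but its log2 difference of -0.50 turned to 0.18 with strips centred. None of the 3 kept within the limits in every couple.

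XERICO (AT2G04240), a small RING-type protein whose overexpression raises abscisic acid levels, measured 1.66 to 2.14 in WT (median 1.93) and 1.99 to 3.12 in flu (median 2.60). It was higher in flu in each couple, at ratios of 1.47, 1.43 and 1.15, and the third flu couple reached into the WT range. CCL (AT3G26740), a clock-controlled transcript known for rapid decay, measured 3.67 to 18.6 in WT (median 9.76) and 8.04 to 12.5 in flu (median 9.90). The first WT couple stood at 3.71, against 10.1 and 14.7 in the others, and the flu couples at 8.21, 9.97 and 11.4. The first couple was thus the lowest in both genotypes, by a wider gap in WT, and the ratio was 2.21 there against 0.983 and 0.775 in the other couples.

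Among kinases and the copine family, AT2G40980, of the protein kinase superfamily, measured 2.33 to 4.34 in WT (median 3.63) and 1.91 to 2.70 in flu (median 2.38). It was lower in flu in each couple, with ratios of 0.782, 0.598 and 0.673, but its log2 difference of -0.58 turned to 0.14 with strips centred. ATSIK (AT3G08760), also a protein kinase, measured 0.961 to 1.35 in WT (mean 1.18) and 1.11 to 1.61 in flu (mean 1.29), with ratios of 1.32, 1.18 and 0.840. AT1G67800, placed here under the copine family, measured 0.737 to 2.45 in WT (median 1.44) and 0.868 to 1.29 in flu (median 1.18). Its ratio went from 1.55 in the first couple to 0.815 and 0.406 in the others, and its 3 WT couples stood at 0.824, 1.44 and 2.34.

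Of 6 enzymes, 5 had a ratio below 1 as deposited, and 2, AT1G35510 and AT1G01500, had a log2 difference below 0 with strips centred. AT4G31530, of the NAD(P)-binding Rossmann-fold family, was above 1 as deposited, at 1.08, and measured 10.6 to 21.3 in WT (median 15.9) and 15.5 to 19.3 in flu (median 17.4). The flu arrays lay within the WT range, and the WT couples stood at 11.5, 15.9 and 21.2. CYN (AT3G23490), the cyanase that breaks down cyanate, measured 1.71 to 3.02 in WT (median 1.98) and 1.57 to 2.45 in flu (median 2.11). The first couple was the highest in both genotypes, at 2.84 in WT and 2.38 in flu, and the ratio stayed between 0.836 and 1.02.

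AT4G29890, which resembles choline monooxygenase, measured 1.45 to 1.95 in WT (median 1.71) and 1.44 to 1.93 in flu (median 1.58), nearly the same range. AT2G22890, related to the plastid desaturase FAD4, measured 1.90 to 2.34 in WT (median 2.19) and 1.33 to 2.14 in flu (median 1.86). AT1G35510, of the O-fucosyltransferase family, measured 1.16 to 2.39 in WT (median 2.01) and 1.65 to 2.03 in flu (median 1.75). Flu lay inside the WT range for AT1G35510, and the 2 genotypes overlapped for AT2G22890. AT1G01500, of the erythronate-4-phosphate dehydrogenase family, measured 0.890 to 2.72 in WT (median 1.30) and 1.09 to 1.60 in flu (median 1.25). Its first WT couple, at 2.68, stood well above the others at 0.926 and 1.30, the reverse of the arrangement in AT3G13150.

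AT2G29870, an aquaporin-like protein, measured 0.760 to 1.78 in WT (median 1.50) and 0.845 to 2.15 in flu (median 1.45). The first couple was low in both genotypes, at 0.783 and 0.925, and the ratio kept between 0.833 and 1.32. No role is given here for the last 6. AT3G09080 measured 2.66 to 3.76 in WT (median 3.21) and 2.68 to 3.92 in flu (median 2.89). AT5G06790 measured 1.10 to 2.21 in WT (median 1.54) and 1.43 to 1.98 in flu (median 1.83). AT2G47360 measured 1.54 to 2.37 in WT (median 1.77) and 1.48 to 1.93 in flu (median 1.60). These 3 overlapped widely and kept within the limits in each couple. AT3G19810 measured 1.08 to 2.12 in WT (median 1.24) and 1.33 to 2.45 in flu (median 1.65), with a ratio of 2.11 in the first couple. AT2G26110 measured 0.783 to 1.77 in WT (median 1.46) and 1.32 to 2.21 in flu (median 1.91), with the third couple the lowest in both genotypes, at 0.849 and 1.38. AT4G13680 measured 1.83 to 3.59 in WT (median 2.60) and 1.62 to 2.09 in flu (median 1.87), with a ratio of 0.475 in the third couple. Each of these 3 left the limits in 1 couple and overlapped between genotypes.

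**Figure D3:**
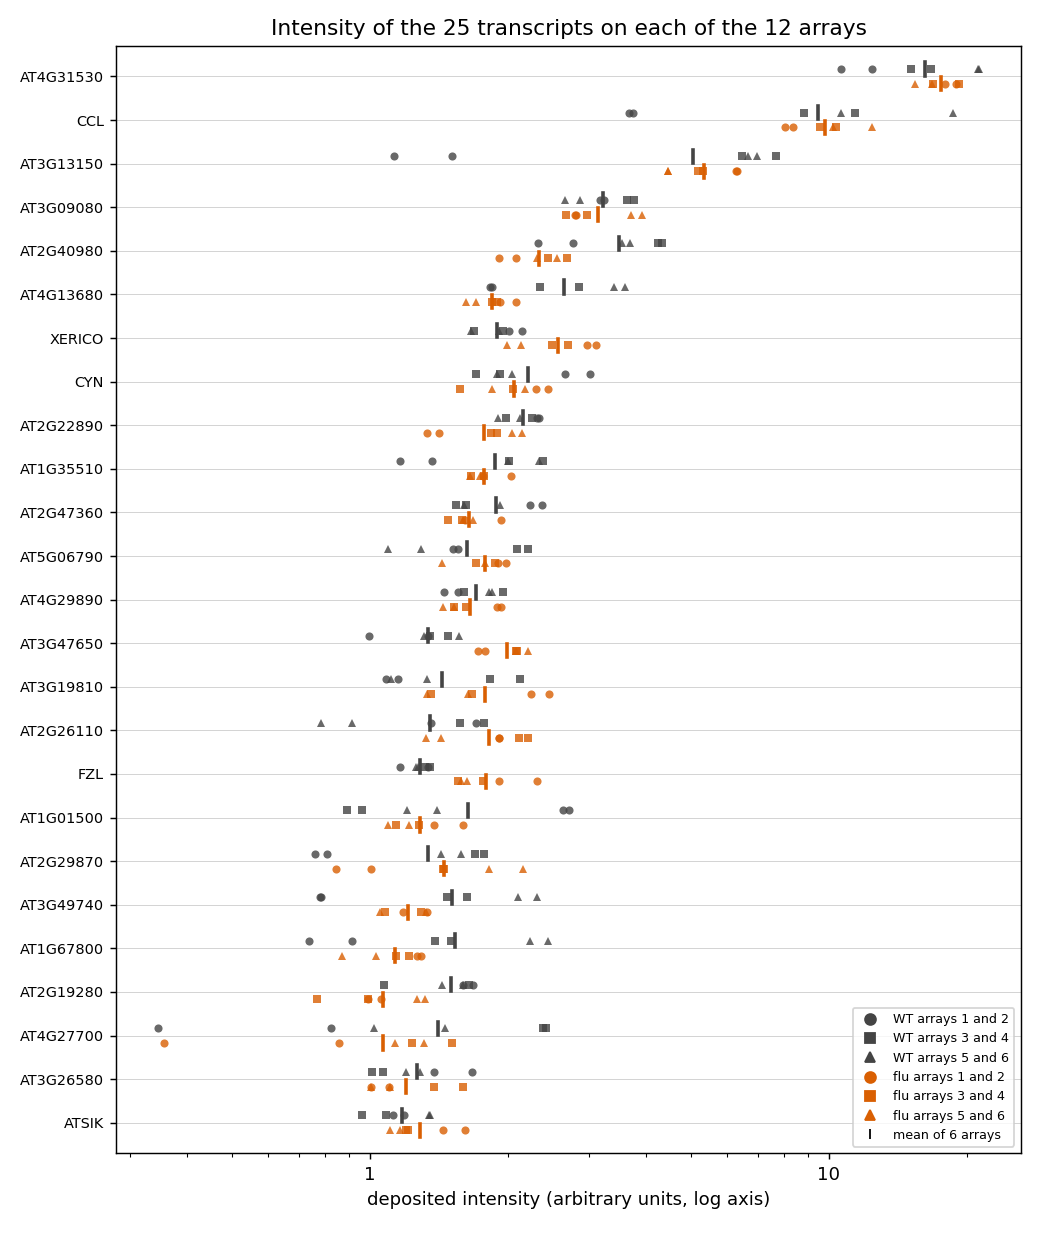
Deposited intensity (log axis) of each of the 25 transcripts on the 6 WT arrays (grey) and the 6 flu arrays (orange), with symbols for the couples of arrays and a bar at the mean of 6 arrays. FZL and AT3G47650 separate the genotypes, while the WT arrays 1 and 2 lie far to the left for AT3G13150 and CCL and to the right for AT1G01500.

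The position of the first WT couple recurred across roles. It was the lowest of the 3 WT couples for 14 of the 25 (56.0%), against 33.1% of all features, and the highest for 7 (28.0%), against 41% of all features. For 8 transcripts the flu mean was above the WT mean in the first couple and below it in both others, namely AT3G13150, CCL, AT3G49740, AT1G67800, AT4G13680, AT1G35510, AT4G29890 and AT4G27700. That is 32.0% of the 25, against 11.5% of the 1559 features of any level with an overall ratio within the limits. These shares describe few transcripts on 12 arrays and were not tested. The shares of all features are matched to the 25 in neither level nor ratio. Without the first couple, 4 of the 25 left the limits, AT2G40980 at 0.632, AT4G13680 at 0.580, AT3G49740 at 0.632 and AT1G67800 at 0.562.

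Whether couples of the same number deviated together in both genotypes is a contrast separate from the one that the rule used, and it was tested. The couples were found in these same data, so the counts that follow are a description. A limma F test on the 6 couple means, with genotype as a term and Benjamini-Hochberg adjustment over all features, passed 0 of the 25 and 0 of 3439 features (0% of all features). With 6 means little is left to estimate the spread from, so the 0 does not show that couples varied separately. Over all features, same-numbered WT and flu arrays did deviate together (r = 0.368 to 0.539). At an unadjusted p below 0.05 it gave 4 of the 25, AT2G40980, AT2G26110, AT2G29870 and AT4G27700, and 12.4% of all features. The lowest adjusted p among the 25 was 0.326, for AT4G27700. With the 12 arrays taken singly, 6 of the 25 passed, the same 4 with CYN and AT1G01500, or 24.0%, against 15.5% of all features and 33.3% of the 39 other abundant features. That fit counts the arrays of a couple as separate samples, so its counts are not read as a result.

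The comparison of genotypes used by the rule is given for scale, and nothing is read from it. In limma over 12 arrays with adjustment over all features, 4 of the 25 passed, against 52.2% of all features and 74.4% of the 39 other abundant features. FZL, XERICO and AT3G47650 were higher in flu (23% of all features) and AT2G40980 was lower (29.2%), a direction that turned for AT2G40980 with strips centred. With couples averaged 2 passed, FZL and AT3G47650 (34.7% of all features), and with strips of feature numbers centred as well XERICO alone passed (27.8%), so 0 passed in all 3 analyses. Without the first couple of both genotypes 10 of the 25 passed (48.1% of all features), and without the third 7 (43.8%).

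The 48 strips are runs of 6 feature numbers that recur every 288 numbers and carried different mean differences between genotypes. The 25 lay in 17 of them. After quantile normalisation the log2 difference of 1 transcript, AT3G47650 at 0.62, was outside the limits of the rule (-0.58 to 0.58 on that scale). For AT3G13150 it was 0.48. The log2 ratio of its deposited means was 0.07, and the difference of its mean log2 values without normalisation was 0.41. With couples averaged and strips centred, 20 of the 25 stayed within the limits (80.0%, against 77.8% of all features with an overall ratio within them). The 5 outside were XERICO at 0.97, AT2G29870 at 0.84, AT2G26110 at 0.73, AT4G29890 at 0.64 and AT1G01500 at -0.68. The sign differed from the deposited one for 14 of the 25, and 17 of the 25 were above 0, against 47.5% of all features. AT2G40980, AT2G29870 and AT4G27700 share a strip and were raised by the same 0.67, and FZL, AT3G19810 and ATSIK share another and were shifted down by 0.46, so each group of 3 moved as 1 on centring.

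**Figure D4:**
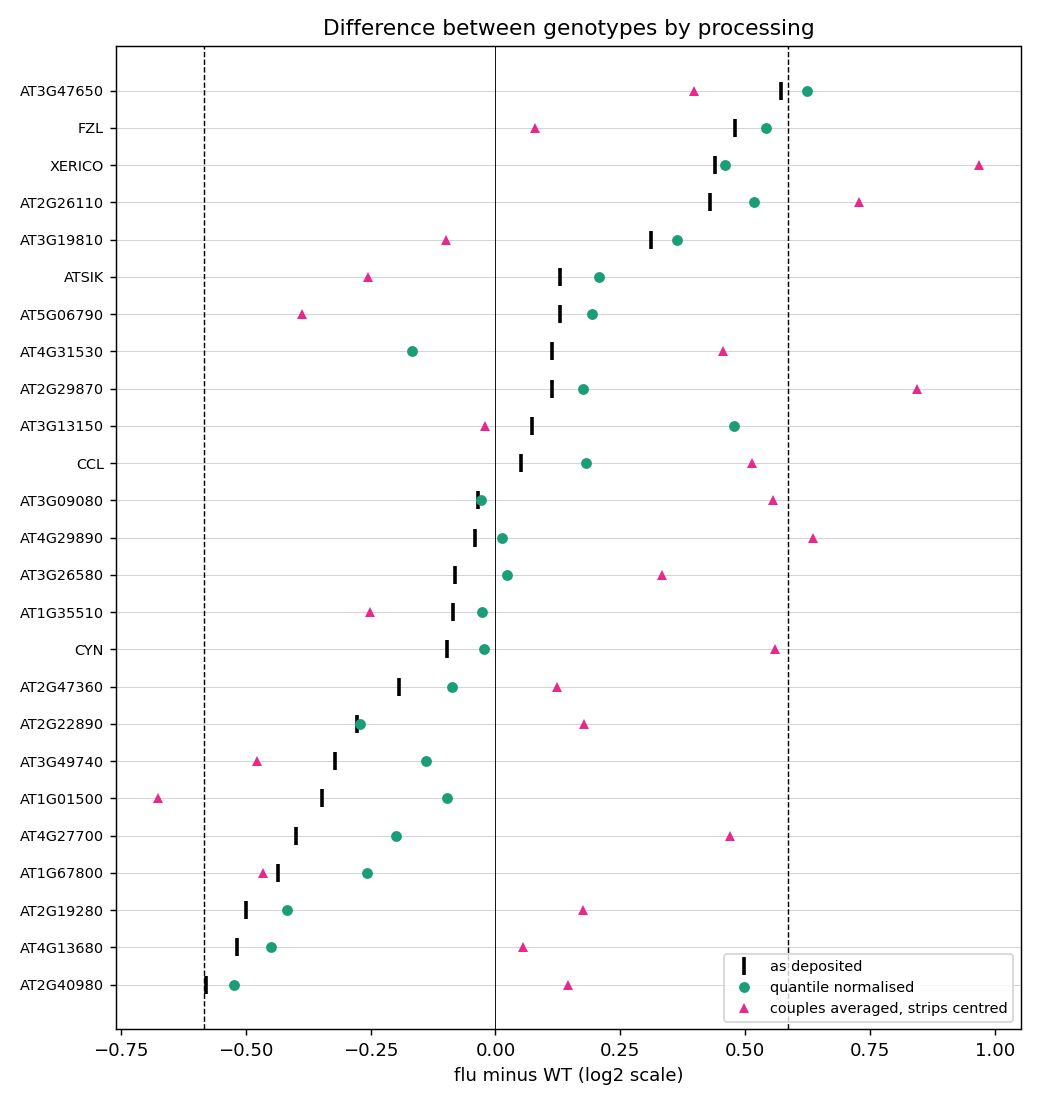
Difference between flu and WT on the log2 scale for each of the 25 transcripts, from the deposited means (bar), after quantile normalisation (circles) and with couples averaged and strips centred (triangles), with the limits of the rule dashed. Normalisation moves AT3G47650 past a limit, and centring moves 5 others past one.

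Of 12 keyword lists applied to gene symbols and synonyms, 8 matched a feature with 1 gene and 0 held any of the 25. Product names were not searched, and most of the 25 have only a locus number as symbol. The 0 therefore does not show that the 25 lack these roles. The aquaporin-like AT2G29870, for example, was not matched by the list for membrane transport. The photosynthesis list held PIFI, PSBY, LHB1B2 and PSBW, with no pass between genotypes over 12 arrays and a median log2 difference of -0.08. The list for mitochondrial respiration matched NdhS and NdhN, which belong to the plastid NDH complex, with no pass. The chaperone list held CCS, with no pass. SPPA and TPP2 of protein turnover, CSLA01 of cell wall synthesis, the thioredoxin reductase NTRC, the transcription factor list's AT4G03090 and 1 of 2 histone genes passed as lower, at log2 medians per list of -0.73, -0.77, -0.73, -0.62 and -0.37. Lists for ribosomal proteins, translation factors, membrane transport and other cell types matched no feature with 1 gene.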

How the data were processed

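The deposited table gives a linear intensity for 3439 features on 12 arrays; for the authors' scaling, array type, tissue and build nothing is stated, and the number of arrays, their resemblance in couples and the strips limit the precision. The platform table lists 1562 features, 692 with 1 gene, 870 with several (not named) and 1877 unlisted; 690 of the 692 matched RefSeq (TAIR10.1), including all 25 described. Ratios are of means of deposited intensities. For fits, intensities were floored at 0.0236, the 1st percentile of those above 0, put on the log2 scale and quantile normalised. They were fitted with limma 3.58.1 in R 4.3.3 (two-sided, Benjamini-Hochberg adjusted p below 0.05). Only the fits on couple means were tried on simulated data, which had no strips and were not normalised. The fit over 12 arrays was not tried in this way. Every one of the 25 is named, with values by array. Genes, lists, couples and strips were chosen with earlier results of these data known, and role groups after the values were seen. Same-numbered WT and flu arrays deviated together (r = 0.368 to 0.539, 12 of 12 arrays best with their own number), on normalised values with strips not centred. Couples of the same number were therefore set against each other, though the labels give only numbers and state no pairing. What same-numbered arrays share was not tested. The main fit over 12 arrays had genotype as its only term. Alternatives changed scaling, floor, filter, block, couples, strips, rule limits and arrays left out. Roles not in the tables are general knowledge.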

Additional observations from a re-analysis of the deposited data

Results flagged for a closer look

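Each transcript's 6 arrays per genotype were searched for 1 array far apart from the rest, which chance gives in about 1 in 20 groups of independent arrays. Of 50 groups 1 had such an array, with 2.5 given by chance if the 6 arrays were independent. Arrays here resembled each other in couples, so the 2.5 does not hold for these data. It was flu array 2 for AT1G35510, which measured 2.03, while the remaining flu arrays lay between 1.65 and 1.77.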

How the results depend on the processing

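Alternatives without a couple, in each couple and with centred rule limits were chosen after seeing the data. The rule gave 25 transcripts, 15 with a ratio above 0.8 and below 1.25, 8 with a mean of at least 2, and 9 with the limits met in each couple. With 1 array left out it gave 23 to 28, with normalised values 27 (24 shared), with medians 20 (19 shared) and without the first couple 25 (19 shared). The median log2 ratio ran from -0.08 to 0.00 with 1 array left out and was 0.18 with strips centred, within 1 SD (0.26) over the 6 numbered pairs. The count over all features passing between genotypes, 1796, became 1089 among the brighter features, 1193 on averaged couples and 956 with strips also centred, and 1665 to 1792 with 1 array left out. Of the 25, 4 passed, 3 to 6 with 1 array left out, 2 with couples averaged, with or without the replicate block, 1 with strips centred too, 10 without the first couple and 7 without the third. With the replicate block over 12 arrays 6 of the 25 and 1966 of all features passed. The couple test passed 0, but 26 among the brighter features, and 534 of all features and 6 of the 25 over 12 single arrays. Among 425 single values, 409 moved by less than 1 SD and 16 by more, and 48 turned sign, 13 of these with 1 array left out. All 16 came from centring the strips on averaged couples, so that setting moved 16 of the 25 transcripts. Most of the 425 were the 300 values with 1 array left out, of which 0 moved by more than 1 SD. Leaving out 1 of 6 arrays changes a mean little, so the 409 say little about stability. Moves of less than 1 SD could also be large. Without the first couple of both genotypes, for example, the log2 ratio of AT3G13150 went from 0.07 to -0.52. That of AT1G67800 went from -0.44 to -0.83. The cause of these moves was not tested. Brightness relative to background is unknown.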
